A study of Mus musculus with 4 samples.

Results

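The imprinted growth genes H19, Dlk1, Meg3, Cdkn1c, Peg3, Plagl1, Grb10, Mest and Ndn were followed in whole ureters of newborn mice. Their probe sets were taken as all those annotated to exactly 1 gene symbol, that symbol being among the 9, which gave 34 of the 45037 probe sets of the array and 8 of the 18193 genes that have a probe set of their own there. H19 had no such probe set: the only probe set that carried its name was annotated to Mir675 as well, and no H19 value is reported. Of the 34 probe sets, 26 passed the filter on dim values and were tested, at least 1 for each of the 8 genes. The 8 left out belonged to Meg3 (3), Ndn (3) and Peg3 (2).

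The ureter group was 3 samples, none of them pooled, from male FVB/N mice at postnatal day 1 (Theiler stage 27) that carried an SMGA/EGFP transgene, which the series title ties to the smooth muscle actin gene Actg2; the whole ureter had been freed of kidney and bladder. It was set against 1 array of RNA pooled from whole mice of both sexes, of the same strain and age and with no reporter gene listed. Tissue, transgene, sex and pooling change together and cannot be told apart. The labels do not name the animals behind the 3 ureters, so a p-value here reflects a spread that could be technical, and the single whole-mouse array is assumed to vary as the ureters do. Each sample went through 2 rounds of amplification before hybridisation to Affymetrix MOE430 arrays. The ureters carried the markers of their tissue: 9 of 12 urothelial and 7 of 10 smooth muscle genes were higher than in the reference, among them the uroplakin gene Upk1b by 5.64 ± 0.29 and the smooth muscle myosin gene Myh11 by 3.14 ± 0.29 (log2 ± SE, limma adjusted p = 0.00473 and 0.00668). Markers of other tissues of the whole mouse were lower: 8 of 10 hepatocyte, 9 of 12 skeletal muscle, 4 of 9 cartilage, 6 of 12 neuron, 4 of 8 adipocyte, 2 of 8 adrenal and pituitary and 4 of 5 erythroid genes passed, with 0 higher in any of these lists, and 1 of 10 endothelial genes was higher. Over all 13718 genes tested, each at its brightest probe set, 3.05% passed as higher and 4.88% as lower. The deposited intensities are linear, and differences are given as log2 ureter minus reference after quantile normalization.

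Imprinted genes are transcribed from 1 parental chromosome, the other copy being silenced by DNA methylation laid down in the germ line or by marks that follow from it. Many act on growth before and just after birth, with paternally expressed genes often favouring growth and maternally expressed genes often restraining it, and several are silenced in most organs as the animal matures. Of the genes measured, Meg3, Cdkn1c and Grb10 are known as maternally expressed in most tissues, and Dlk1, Peg3, Plagl1, Mest and Ndn as paternally expressed. The array reads the total transcript and does not tell the parental copies apart.

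H19 shares its probe set with a microRNA because the microRNA is cut from the H19 transcript itself. The mature sequences are shown because they are the reason H19 drops out of the measurements. They are from RefSeq (GRCm38.p6, chromosome 7, minus strand), at chr7:142577112-142577133 for the 5p arm and chr7:142577078-142577099 for the 3p arm, with the seed, bases 2 to 8, in capitals.
mmu-miR-675-5p: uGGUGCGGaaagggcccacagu
mmu-miR-675-3p: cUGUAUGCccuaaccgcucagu

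The start regions of Meg3 and Peg3 are shown for context. They held the only matches to TGACGTCA among the 11 windows found for the members, and no link to the values was tested. Each window covers 250 bases before and 50 after the start in RefSeq (GRCm38.p6), with matches to TGACGTCA, the cAMP response element, and to TATAAA, the TATA box, in capitals on either strand. Meg3 (chr12:109540746-109541045, plus strand, the first of 2 start windows) held TGACGTCA once, beginning at position -57 from the start, and TATAAA on both strands in overlapping matches of which the first begins at position -29. Peg3 (chr7:6730370-6730669, minus strand) held TGACGTCA once, beginning at position -178, and no TATAAA. Of all 32851 windows, 1.79% held TGACGTCA and 13.6% held TATAAA. Of 11 windows found for 7 of the 9 genes, 2 held the first motif and 1 the second. A match says only that these letters occur there.
Meg3: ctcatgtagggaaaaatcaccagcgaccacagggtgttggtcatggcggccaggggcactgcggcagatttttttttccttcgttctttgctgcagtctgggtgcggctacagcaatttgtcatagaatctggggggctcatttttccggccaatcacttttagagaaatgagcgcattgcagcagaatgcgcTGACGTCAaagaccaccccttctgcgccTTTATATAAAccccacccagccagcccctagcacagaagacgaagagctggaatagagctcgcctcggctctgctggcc
Peg3: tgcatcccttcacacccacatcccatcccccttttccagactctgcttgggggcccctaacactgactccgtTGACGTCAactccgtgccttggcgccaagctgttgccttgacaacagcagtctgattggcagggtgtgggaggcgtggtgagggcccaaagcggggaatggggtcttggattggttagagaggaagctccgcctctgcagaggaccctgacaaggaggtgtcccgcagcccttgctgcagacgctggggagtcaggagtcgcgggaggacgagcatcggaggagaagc

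None of the 26 tested probe sets passed limma's adjusted p of 0.05 in either direction, where 6.37% of all 27022 tested probe sets did (2.79% higher and 3.58% lower in the ureters). Neither did any of the 15 brighter ones, with a mean log2 value of 11 or more, or of the 11 dimmer ones, where 6.11% and 6.49% of all probe sets passed. At an unadjusted p of 0.05, 4 of the 26 passed, 2 of Meg3 and 1 each of Dlk1 and Ndn, against 24.2% of all tested probe sets. The 26 differences ran from -1.96 to 1.34 with a median of -0.34, while the median over all tested probe sets was 0.11. The distance of the members' median from the array's median was -0.45, and it was -0.47 both with the scaling as deposited and with median-centred arrays. The sign of small differences depends on that scaling: 21 of the 26 were negative after quantile normalization, 22 as deposited and 11 with median-centred arrays, where the median of all tested probe sets lay at 0.60. All 3 ureters lay below the reference at 14 of the 26 probe sets and above it at 4, against 29.4% and 39.1% of all tested probe sets. As deposited the counts were 15 and 1, against 38.6% and 28.5%, and with median-centred arrays 6 and 8, against 17.9% and 54.1%. Probe sets of 1 gene can read the same transcripts and cannot be counted as independent, and 11 of the 14 belonged to Meg3 and Ndn.

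**Figure D1:**
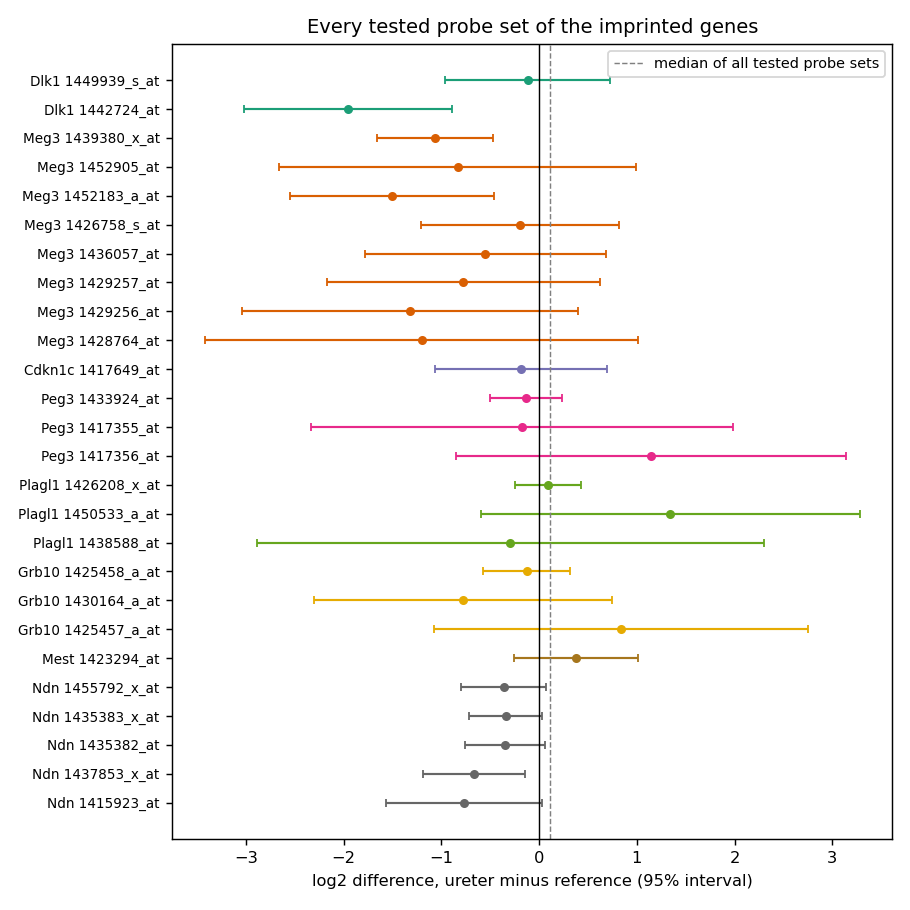
Log2 difference, ureter minus reference, of the 26 tested probe sets, each with its 95% interval from limma (x axis, log2; y axis, gene and probe set). The dashed line marks the median of all tested probe sets, 0.11; the intervals of 2 Meg3, 1 Dlk1 and 1 Ndn probe set end below 0.

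Meg3, a long noncoding RNA made from the maternal copy of the Dlk1-Dio3 region, had a negative difference at all 8 tested probe sets, except that 1426758_s_at turned to 0.39 with median-centred arrays, and passed the test at none. Its brightest probe set, 1439380_x_at, had intensities of 7953, 8091 and 8670 in the ureters against 16031 in the reference. The ureters lay close together and did not overlap the reference on that scale or after quantile normalization, where the difference was -1.06 ± 0.24 (SE; 95% interval -1.66 to -0.47; limma adjusted p = 0.0596). With median-centred arrays it was -0.23 ± 0.56 (adjusted p = 0.816). At 1452183_a_at the intensities were 1704, 1082 and 1602 in the ureters against 3929 in the reference, again with no overlap, a difference of -1.51 ± 0.43 and an adjusted p of 0.0992, which became -0.72 ± 0.73 with median-centred arrays. Across its 8 tested probe sets the difference ran from -1.51 to -0.19, and all 3 ureters lay below the reference at 6 of them. The exceptions were 1426758_s_at (-0.19), where ureter replicate 1 lay above the reference after normalization, and 1452905_at (-0.84), where ureter replicate 2 did and the value was -0.02 with median-centred arrays. Of 3 dimmer probe sets left out of the test, 1452906_at had 39.2, 61.0 and 191 in the ureters against 52.0 in the reference, and its lone high value was in ureter replicate 3. The suffix x marks probe sets whose probes may also bind other transcripts, s those shared by several transcripts and a those of several forms of the same gene, so the probe sets need not measure the same RNA.

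Dlk1, which encodes a membrane protein related to the Notch ligands and released from growing tissue as a soluble form, gave 2 probe sets that read differently. At 1442724_at the ureters had 364, 654 and 604 against 2279 in the reference. All 3 lay well below it, 3.88-fold on the normalized scale (-1.96 ± 0.44, 95% interval -3.02 to -0.90), and the adjusted p of 0.0554 just missed the threshold. At the brighter 1449939_s_at the ureters had 3063, 3698 and 4281 against 3723 in the reference, so the groups overlapped. That difference was -0.12 ± 0.35 (95% interval -0.96 to 0.73, adjusted p = 0.879), and it turned to 0.70 with median-centred arrays. The dimmer probe set passed as lower with an offset of 50 (adjusted p = 0.0498) and with the dimmest 60% of probe sets removed (0.0436), and under no other alternative run. The difference between the probe sets was not tested. In bulk tissue, fewer cells that make a transcript and less of it per cell cannot be told apart, here or at the other genes.

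**Figure D2:**
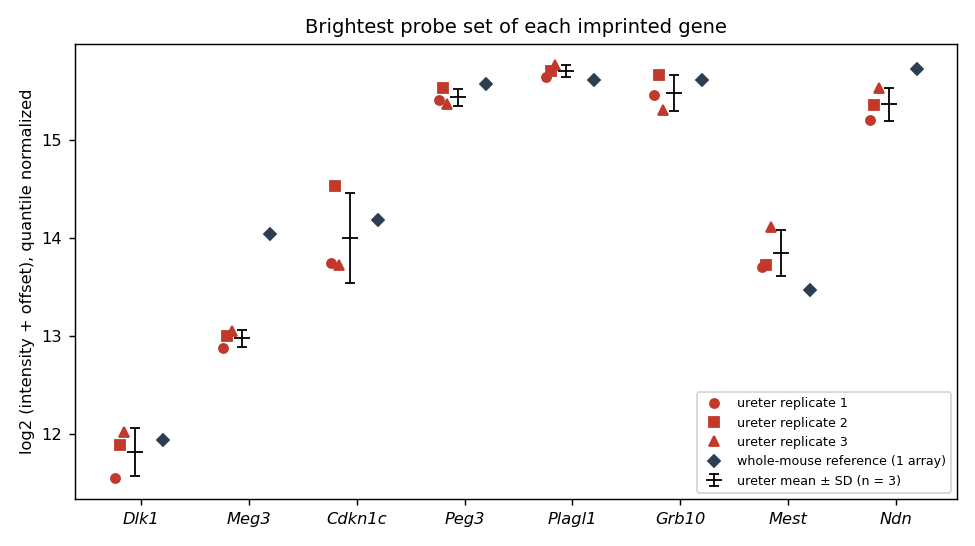
Brightest probe set of each of the 8 measured genes (x axis) on the log2 scale after quantile normalization (y axis). Red symbols are the 3 ureters, the black bar their mean ± SD, and the dark diamond the whole-mouse reference; heights may be compared within a gene and not between genes. Meg3, Peg3 and Ndn had all ureters below the reference, and Mest and Plagl1 had all above it, Plagl1 by the least.

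Neither of the maternally expressed genes that restrain growth, Cdkn1c and Grb10, passed the test at any probe set. Cdkn1c encodes a cyclin-dependent kinase inhibitor that stops cells in the cycle, and its single probe set had 14341, 24117 and 13727 in the ureters against 17957 in the reference. The reference lay within the range of the ureters, replicate 2 being above it and the other 2 below, and the difference was -0.19 ± 0.36 (95% interval -1.06 to 0.69, adjusted p = 0.807). Grb10 encodes an adaptor that binds the insulin and IGF receptors and dampens their signal. Its brightest probe set, 1425458_a_at, had 39941, 57480 and 37752 in the ureters against 55905 in the reference, a difference of -0.13 ± 0.18 (95% interval -0.57 to 0.32, adjusted p = 0.726), with ureter replicate 2 above the reference. Both genes' brightest values turned positive with median-centred arrays (0.63 for Cdkn1c and 0.39 for Grb10). The 2 dimmer Grb10 probe sets lay on opposite sides of 0, 1430164_a_at at -0.78 with all ureters below the reference and 1425457_a_at at 0.84, and neither passed. As deposited they were -1.40 and 0.04.

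The paternally expressed nuclear regulators divided into Ndn, with all 5 tested probe sets below the reference, and Peg3 and Plagl1, whose probe sets did not go one way. Ndn encodes necdin, a MAGE family protein that restrains the division of neurons and, in humans, lies in the region lost in Prader-Willi syndrome. Its brightest probe set, 1455792_x_at, had 34141, 45725 and 43737 in the ureters against 62748 in the reference, and 1437853_x_at had 24359, 31204 and 32411 against 51650. The groups did not overlap at either. All 15 ureter values of the 5 probe sets lay below their reference. The differences were -0.36 ± 0.18 (adjusted p = 0.278) and -0.67 ± 0.21 (adjusted p = 0.129), and the whole range was -0.77 to -0.34. With median-centred arrays 4 of the 5 turned positive, up to 0.19, and 1437853_x_at was -0.10. The 3 dim Ndn probe sets were not above background on any array.

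Peg3 encodes a zinc finger protein known for its part in growth and maternal behaviour. Its brightest probe set, 1433924_at, had 38272, 52557 and 39190 in the ureters against 54338 in the reference, a difference of -0.13 ± 0.15 (95% interval -0.50 to 0.24, adjusted p = 0.654). All 3 ureters lay below the reference, replicate 2 by the least, and the value was -0.34 as deposited and turned to 0.39 with median-centred arrays. At 1417356_at the ureters had 741, 2191 and 442 against 581, a difference of 1.15 ± 0.82 (adjusted p = 0.452) that was 0.62 as deposited, with replicate 2 far above the other ureters. Plagl1 encodes a zinc finger factor that slows the cell cycle and, in mouse, acts on other imprinted genes. At its brightest probe set, 1426208_x_at, the ureters had 44661, 58854 and 49604 against 56105, and replicate 2 alone lay above the reference as deposited. The difference was the smallest of all 26, 0.09 ± 0.14 (95% interval -0.25 to 0.43, adjusted p = 0.753), and it was -0.15 as deposited and 0.58 ± 0.31 with median-centred arrays. Its 1450533_a_at had 425, 1498 and 328 in the ureters against 378 in the reference (1.34 ± 0.80, adjusted p = 0.365), and 1438588_at had 217, 1052 and 103 against 574 (-0.30 ± 1.07, adjusted p = 0.900). As deposited these were 0.64 and -0.95.

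Mest, which encodes a protein of the alpha/beta-hydrolase fold and is known as a mark of the mesoderm of the embryo, was the only gene whose ureters all lay above the reference at its brightest probe set as deposited. Its single probe set had 13958, 13458 and 17803 in the ureters against 10652 in the reference. The difference was 0.38 ± 0.26, or 1.30-fold (95% interval -0.26 to 1.01, adjusted p = 0.438), and it did not pass. With median-centred arrays it was 1.22 ± 0.53 (adjusted p = 0.189).

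How closely the differences were bounded varied with brightness and gene. After quantile normalization the 95% intervals of the brightest probe sets of Plagl1, Peg3, Grb10 and Ndn ended between -0.80 and 0.43, within 2-fold in either direction. That of Mest reached 1.01, that of Cdkn1c ran from -1.06 to 0.69, that of Dlk1 from -0.96 to 0.73 and that of Meg3 from -1.66 to -0.47. These bounds do not cover the choice of scaling, under which the Mest value alone moved past 2-fold but SEs grew as well. With median-centred arrays Plagl1, Peg3, Grb10 and Ndn were 0.58 ± 0.31, 0.39 ± 0.32, 0.39 ± 0.32 and 0.11 ± 0.33. The 2-fold bound therefore applies to the quantile-normalized values only. As deposited, the SEs at the brightest probe sets of Plagl1, Peg3, Grb10 and Ndn were 0.22, 0.24, 0.28 and 0.23. After quantile normalization they were smaller, 0.14, 0.15, 0.18 and 0.18. Without an intensity trend in the variance prior they were larger, 0.34, 0.34, 0.36 and 0.36. The bounds do not cover that choice either. Among dimmer probe sets the interval was as wide as -2.89 to 2.30 for Plagl1 1438588_at. A p above the threshold does not show that the groups are alike.

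Ureter replicate 2 stood apart from the other ureters at several of these genes. At 6 of the 26 tested probe sets the SD between ureters was over 1 on the log2 scale, a line chosen after the values were seen, against 9.83% of all tested probe sets. They were 2 of Peg3, 2 of Plagl1 and 2 of Meg3, with SDs of 1.02 to 1.46. All 6 were highest in replicate 2, as were 52.0% of the 2656 tested probe sets with such an SD. At Peg3 1417355_at the ureters had 899, 5228 and 1563 against 2323 in the reference, so replicate 2 lay above the reference and the other 2 below. At Meg3 1452905_at they had 1920, 7842 and 2899 against 5932, with the same order. After quantile normalization the brightest probe sets of Peg3, Plagl1 and Meg3 showed no such split, their SDs being 0.09, 0.06 and 0.09. As deposited, replicate 2 was the highest ureter at that of Peg3 (38272, 52557 and 39190) and of Plagl1 (44661, 58854 and 49604). At that of Meg3 it was not.

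**Figure D3:**
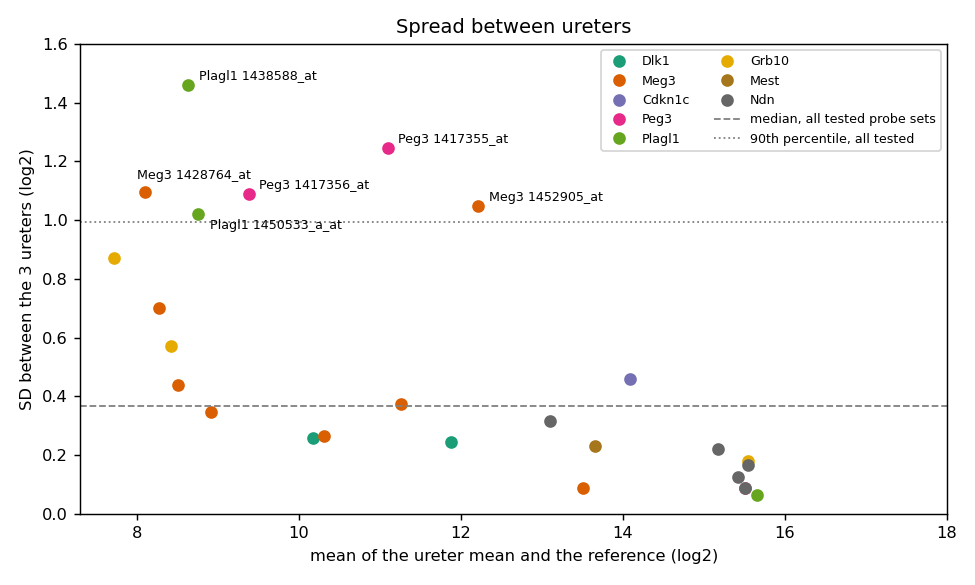
SD between the 3 ureters (y axis, log2) of the 26 tested probe sets against the mean of the ureter mean and the reference (x axis, log2), coloured by gene. The dashed and dotted lines are the median (0.37) and 90th percentile (0.99) of all tested probe sets; the 6 labelled probe sets of Peg3, Plagl1 and Meg3 lie above the dotted line.

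Summed over a list, kidney epithelium genes were also highest in replicate 2 among the ureters. As deposited, 43.4% of all tested probe sets were highest in that replicate, and 49.1% of those with a mean log2 value under 11. Over the 10 tested, their summed intensity was 7047, 25012 and 18209 in ureter replicates 1, 2 and 3, against 16330 in the reference. Umod had 32.9, 1993 and 917 against 2046, and the ion transporter gene Slc12a1 had 29.4, 4114 and 651 against 969; both were chosen after their values were seen. The hepatocyte list (3671, 9598 and 8508 in the ureters against 501239 in the reference) and the skeletal muscle list (3680, 13185 and 4640 against 402083) showed the same replicate highest. So did the adipocyte list (62467, 86700 and 84496) and the adrenal and pituitary list (1911, 2540 and 1990). The cartilage list (4870, 5639 and 6583) and the neuron list (4222, 4633 and 4985) were highest in replicate 3. The erythroid list (1665, 2264 and 2422) was highest there as well. Of the 10 hepatocyte genes tested, 5 were not above background in any ureter. The background set by the bacterial controls was 57.2, 212 and 101.5 in the ureters against 188 in the reference. No gene of the kidney list passed in either direction. The part of these values in the spread of Peg3, Plagl1 and Meg3 was not tested.

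Other imprinted genes were taken from lists of known imprinting, each gene at its brightest probe set. Of 17 paternally expressed genes tested outside the members, 3 passed as lower and 0 as higher, with a median of -0.95. Over all 13718 genes 7.94% passed, 4.88% as lower and 3.05% as higher, and the median was 0.10. Nap1l5, a nucleosome assembly relative, had 443, 810 and 410 in the ureters against 3599 in the reference (-2.66 ± 0.47, adjusted p = 0.0297). Zdbf2 had 1347, 773 and 650 against 5172 (-2.59 ± 0.52, adjusted p = 0.0424), and the phosphatase gene Inpp5f 5704, 5287 and 5379 against 12072 (-1.26 ± 0.27, adjusted p = 0.0479). Every ureter lay below the reference at these 3 genes. Neuron markers were lower in the ureters as well, 6 of 12 passing with a median of -3.41 and summed intensities of 4222, 4633 and 4985 against 44125 in the reference, and their part in these calls was not tested. Mkrn3 (0.04) and Rasgrf1 (-0.13) had the smallest differences. Of 10 alternatives, Nap1l5 passed under 7, Zdbf2 under 5 and Inpp5f under 2. All 3 calls were lost without an intensity trend in the variance prior. None of the 3 passed without ureter replicate 3 (adjusted p 0.115 for Nap1l5, 0.147 for Zdbf2 and 0.195 for Inpp5f) or with median-centred arrays (0.0861, 0.171 and 0.688, with Inpp5f at -0.42), Zdbf2 and Inpp5f did not without replicate 2 (0.0506 and 0.0521), and Inpp5f did not without replicate 1 (0.0630).

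Of 25 maternally expressed genes outside the members, 1 passed as higher and 1 as lower, with a median of -0.24. Over all genes 3.05% passed as higher and 4.88% as lower. Whether the genes of either list are imprinted in the ureter was not tested. Dcn, the matrix proteoglycan gene decorin, imprinted in mouse placenta, had 38057, 39222 and 37352 in the ureters against 14845 in the reference (1.35 ± 0.18, adjusted p = 0.0151). Dcn also stands in the fibroblast marker list, where it was the 1 gene of 10 that passed. Gatm, an enzyme of creatine synthesis, had 979, 1331 and 645 against 4582 (-2.26 ± 0.48, adjusted p = 0.0492). Ube3a (-0.00) and Blcap (0.03) had the smallest differences. Neither the Dcn nor the Gatm call held without an intensity trend in the variance prior. Dcn passed under 8 of 10 alternatives, with 2.09 for median-centred arrays, and Gatm under 3, not with median-centred arrays (0.195). Without ureter replicate 3 neither passed (0.0823 for Dcn and 0.149 for Gatm), and Gatm did not pass without replicate 1 either (0.0602).

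**Figure D4:**
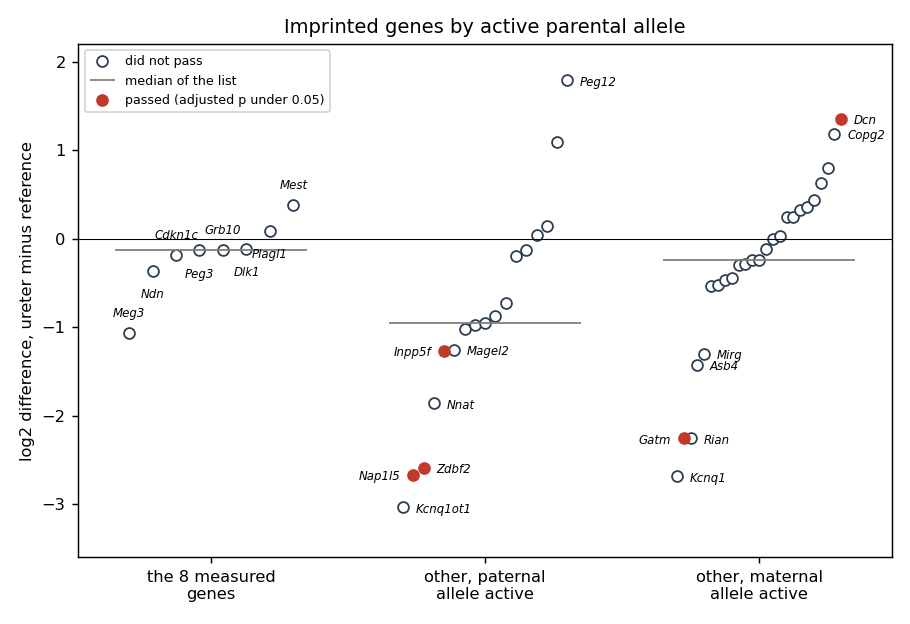
Log2 difference, ureter minus reference (y axis), of the 8 measured genes and of 17 paternally and 25 maternally expressed other imprinted genes, each at its brightest probe set and sorted within its list (x axis). Filled symbols passed limma's adjusted p of 0.05, and grey lines are list medians (-0.13, -0.95 and -0.24).

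Neighbours of the members on their chromosomes were read after their values were seen. Not all are named, and they did not all go one way. Peg12, in the region of Ndn, lay above the reference in all ureters (1.79 ± 0.55), though the reference was not above background there. Copg2, next to Mest, also lay above it in all ureters (1.18 ± 0.41). Neither passed. Rian and Mirg, noncoding RNAs from the same maternal strand as Meg3, had differences of -2.25 ± 0.84 and -1.30 ± 0.59 and did not pass (adjusted p = 0.173 and 0.246). Rian had 358, 2234 and 768 in the ureters against 4324 in the reference, again with the highest ureter value in replicate 2. It passed as lower under 1 of 10 alternatives, the run without that replicate (adjusted p = 0.0315). Igf2, the growth factor gene beside H19, had 14987, 19006 and 20145 in the ureters against 34276 in the reference, with a difference of -0.88 ± 0.25 (adjusted p = 0.0989) that was -0.21 ± 0.44 with median-centred arrays (adjusted p = 0.788). Kcnq1ot1, the antisense RNA of the Cdkn1c region, had 1989, 4965 and 777 against 16007 (-3.03 ± 0.91, adjusted p = 0.111). Of 10 alternatives it passed under 1, the run without replicate 2 (adjusted p = 0.0261).

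Genes of the pathways in which the members act are read against the 7.94% of all genes that passed. In insulin and IGF signalling, which Grb10 dampens, 1 of 20 genes was higher and 1 lower, with a median of 0.10. Igf1 had 28323, 26730 and 30635 in the ureters against 9360 in the reference (1.53 ± 0.21, adjusted p = 0.0168), and Igfbp2, which encodes an IGF-binding protein, had 1589, 1223 and 1135 against 6563 (-2.39 ± 0.39, adjusted p = 0.0250). Grb2 (-0.02) and Nedd4 (0.05) had the smallest differences. Among 15 Notch pathway genes, relatives or partners of Dlk1, Rbpj, the DNA-binding partner of Notch, was higher by 1.09 ± 0.23 (adjusted p = 0.0458), and Hes1 and Heyl differed by 0.01 each. Without ureter replicate 3 none of these 3 calls held (0.0860 for Igf1, 0.109 for Igfbp2 and 0.188 for Rbpj), and Rbpj was also lost without replicate 1 (0.0630). With median-centred arrays Igf1 was 2.34, Rbpj 1.93 and Igfbp2 -1.59, the last not passing (0.197). Igf1 passed under 8 of 10 alternatives, Igfbp2 under 7 and Rbpj under 5. These 3 calls were also lost without an intensity trend in the variance prior. None of 23 cell cycle genes passed, Cdkn2d (0.03) and Top2a (-0.04) being nearest to 0, nor did any of 13 factors that set or keep imprints, such as Trim28 (0.04) and Ehmt2 (0.03), or any of 10 relatives of Plagl1 and partners of Ndn, such as Siah1a (0.04) and Usp7 (0.04).

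Patterns over the 4 arrays were compared by the root mean square difference of log2 values, each centred on its gene's mean, among 13717 other genes. The closest to Grb10 was Ccnd3 (0.00857), to Cdkn1c Batf2 (0.0105), to Peg3 Zmym2 (0.0107), to Mest Spaca4 (0.0148), to Plagl1 Kdm3b (0.0157), to Ndn Washc1 (0.0164), to Dlk1 Mapre1 (0.020) and to Meg3 Cadm3 (0.0268). The second closest were Hdgfl1, Clca2, Hdac5, Cxxc1, Ubac2, Mettl23, Orai2 and Prkaca in the same order. With 4 arrays many genes share any pattern, and the likeness is a description only.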

How the data were processed

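The authors deposited 1 linear intensity for each probe set and array, made with GCOS per the submitters' processing notes; its version and background step are not given in the sources used here. A mean of 1500 after trimming 2% at each end was common to the arrays, whose medians were 154, 259 and 186.5 in the ureters and 332 in the reference.

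After 64 controls were left out, 12.23, the 10th percentile, was added before taking log2, the arrays were quantile normalized, and the dimmest 40% of probe sets by the average of ureter mean and reference were removed. Folds of dim probe sets are understated on this scale. The filter line was 7.08; Grb10 1425457_a_at (7.72) lay just inside and Meg3 1428765_at (6.95) just outside. Limma (3.58.1, R 4.3.3) used a variance prior with an intensity trend and 2 residual degrees of freedom. Tests were two-sided, Benjamini-Hochberg adjusted over 27022 probe sets, and the script was tested on simulated data. Background was the highest of 27 bacterial controls on an array.

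Genes came from the platform annotation (34945 probe sets with 1 symbol, 932 with several, 9160 with none). Genes to name besides the members were, per list, those that passed (at most 4, all for imprinted genes) and the 2 with the smallest difference, and the 2 closest in pattern to each member; others are said to be chosen after their values were seen. Members and lists were chosen with earlier results of these data known. The number of arrays limits precision.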

Additional observations from a re-analysis of the deposited data

How the results depend on the processing

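Alternatives covered scaling, offset, filter, variance prior, averaging of probe sets and leaving out each ureter. No tested member passed under 9 of the 11 alternatives, and 1 probe set, Dlk1 1442724_at, did with an offset of 50 and with the dimmest 60% removed. The members tested were 34 probe sets with no filter, 20 with the dimmest 60% removed and 27 without ureter replicate 3. They were 8 genes where probe sets were averaged, and 26 probe sets otherwise. Calls over all probe sets moved more: 753 higher and 968 lower became 444 higher as deposited (33.5% of calls higher, against 43.8%), 424 with no filter and 273 without an intensity trend. Leaving out each ureter gave 53 to 997 higher and 282 to 1282 lower calls, the fewest without replicate 3. With median-centred arrays the sign turned for Cdkn1c (0.63), Dlk1 1449939_s_at (0.70), Grb10 1425458_a_at (0.39), Meg3 1426758_s_at (0.39), Peg3 1433924_at (0.39) and 1417355_at (0.48), and Ndn 1415923_at (0.081), 1435382_at (0.19), 1435383_x_at (0.14) and 1455792_x_at (0.11). It turned for Plagl1 1426208_x_at as deposited (-0.15) and for Peg3 with its probe sets averaged (0.28). Leaving out each ureter gave -0.89 to 0.33 for Peg3 1417355_at, -1.10 to 0.36 for Plagl1 1438588_at and -0.22 to 0.018 for Dlk1 1449939_s_at. The cause of these shifts was not tested. No paired analysis was possible because the labels give no shared replicate numbers and the reference is 1 array.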
